A study of Homo sapiens with 6 samples.

Results

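ATF4, ATF5, ATF3, DDIT3, TRIB3, CHAC1, SESN2, DDIT4, CEBPB and ASNS are 10 genes of the ATF4 and CHOP stress response, chosen by symbol from a table of RNA levels. All 10 were found among the 25268 gene symbols listed, and all 10 were among the 12169 genes kept for testing, which had at least 1 FPKM in at least 2 libraries. The unit, FPKM, corrects fragment numbers for transcript length and sequencing yield. Levels of different genes can be compared only roughly, since the replicates differed with the GC content of transcripts, as described further on. The cells were A673, a single human Ewing sarcoma line whose tumour type is driven by a fusion of EWSR1 and FLI1. They were studied 72 h after transient transfection of esiRNA, a pool of short RNAs that lowers a target transcript. The groups were esiFLI1, labelled as a knockdown of the EWSR1-FLI1 fusion, esiUSP9X, which targets a deubiquitinase, and esiGFP, the non-targeting control, with 2 libraries each. All 3 groups carry the fusion gene and all were transfected, and the knockdown was incomplete. FLI1 RNA was 12.7 and 14.1 FPKM in esiFLI1, 24.98 and 31.9 FPKM in esiUSP9X, and 24.1 and 36.4 FPKM in esiGFP. USP9X RNA was 5.31 and 7.10 FPKM in esiUSP9X, against 20.6 and 26.5 FPKM in esiGFP.

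The integrated stress response is a pathway in which kinases sense amino acid shortage, misfolded protein, heme loss or viral RNA and phosphorylate the initiation factor eIF2. Phosphorylated eIF2 slows general translation while it favours translation of ATF4 mRNA, so much of the control of ATF4 lies outside its RNA level. ATF4 binds DNA together with C/EBP proteins at composite elements and turns on genes for amino acid supply, and it also induces CHOP, the protein of DDIT3, which takes part in cell death under lasting stress.

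FPKM totals per library ranged from 781732 to 907926, and the read depth is unknown. A microRNA symbol, MIR6723, held between 33.2% and 50.9% of each sum. Of 7 markers of Ewing sarcoma, 6 were kept. CD99, the surface protein used in diagnosis, was listed at 0 in all 6 libraries, which cannot be read as absence without counts. The summed level of the 7 was 91.7 to 99.4 FPKM in esiFLI1, 270 to 313 FPKM in esiUSP9X and 253 to 255 FPKM in esiGFP. Without a block 2 of them, STEAP1 and PRKCB, fell in esiFLI1 (adjusted p = 0.0275 and 0.0456, limma), against 0.23% of all kept genes called lower. With the replicate block described below all 6 fell, against 21.6%. FLI1, the target of the knockdown, is among the 7 and counts in the sum and in the 6. NKX2-2 changed by -1.40 (adjusted p = 0.0654, blocked 8.3e-05) and BCL11B by -0.82 (adjusted p = 0.0891, blocked 6.5e-04). Markers of other cell types were low. The 6 epithelial markers summed to at most 1.89 FPKM in any library and 0 were kept. The 3 skeletal muscle markers summed to at most 0.206 FPKM and 0 were kept. The 5 endothelial markers summed to 1.51 to 1.57 FPKM in esiFLI1, 0.198 to 0.231 FPKM in esiUSP9X and 0.153 to 0.210 FPKM in esiGFP. Only KDR was kept (log2 change 1.08 in esiFLI1, adjusted p = 0.0189, limma). It was 1.30 and 1.33 FPKM in esiFLI1, 0.153 and 0.148 FPKM in esiUSP9X, and 0.106 and 0.088 FPKM in esiGFP. KDR thus passed the filter only through esiFLI1, where it is high, so its call is not independent of the filter. The 5 leukocyte markers summed to 4.59 to 7.99 FPKM in esiFLI1, 1.89 to 2.02 FPKM in esiUSP9X and 2.77 to 3.88 FPKM in esiGFP. Most of this was CD68, which is not limited to leukocytes, and the part of these markers in any result was not tested.

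Most of the stress genes were lower in the knockdown of the fusion transcript, and in the knockdown of USP9X no gene of the 10 was called different from control. In esiFLI1 the levels of 8 of the 10 genes lay below both esiGFP libraries, a pattern found in 17.3% of all kept genes. By their means CHAC1, TRIB3, ATF5 and ASNS were 5.97, 5.29, 5.09 and 4.07 times lower, DDIT3 and CEBPB 2.80 and 2.72 times lower, and SESN2 and ATF4 1.92 and 1.73 times lower, while ATF3 and DDIT4 overlapped with control. None of the 10 lay above both esiGFP libraries, which 19.8% of kept genes did. The median log2 change of the 10 genes was -1.37, against -0.03 over all kept genes. These are levels in bulk RNA, where fewer cells with a transcript and less of it per cell cannot be told apart. In esiUSP9X the means of the 10 genes were between 0.891 and 1.10 times those of esiGFP.

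Calls were made with limma on log2(FPKM + 1), two-sided, at a Benjamini-Hochberg adjusted p under 0.05 over all kept genes, and changes on this scale understate those of low genes. Without a block, DDIT3 and ASNS were called lower in esiFLI1, 2 of the 10 genes, against 0.23% of kept genes called lower, and 0 were called higher, against 2.58% (2.81% in either direction). The libraries of replicate 1 differed from those of replicate 2 in a way that the groups shared in part, as described further on. Across genes, deviations from the group mean were correlated at 0.589 to 0.647 between groups. A fit with the replicate number as a block called 8 of the 10 genes lower, against 21.6% of kept genes. The 8 were ATF4, ATF5, DDIT3, TRIB3, CHAC1, SESN2, CEBPB and ASNS. A call from the fit with the block is named as blocked below. When any 1 of the 6 libraries was left out, the calls of DDIT3 and ASNS without a block were lost. Such a fit has a group with a lone library, so its calls are not counted here for or against a gene. Over all alternative fits, these included, the log2 changes of the 8 genes in esiFLI1 stayed below 0. They lay between -2.89 (ATF5) and -0.30 (SESN2).

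**Figure D1:**
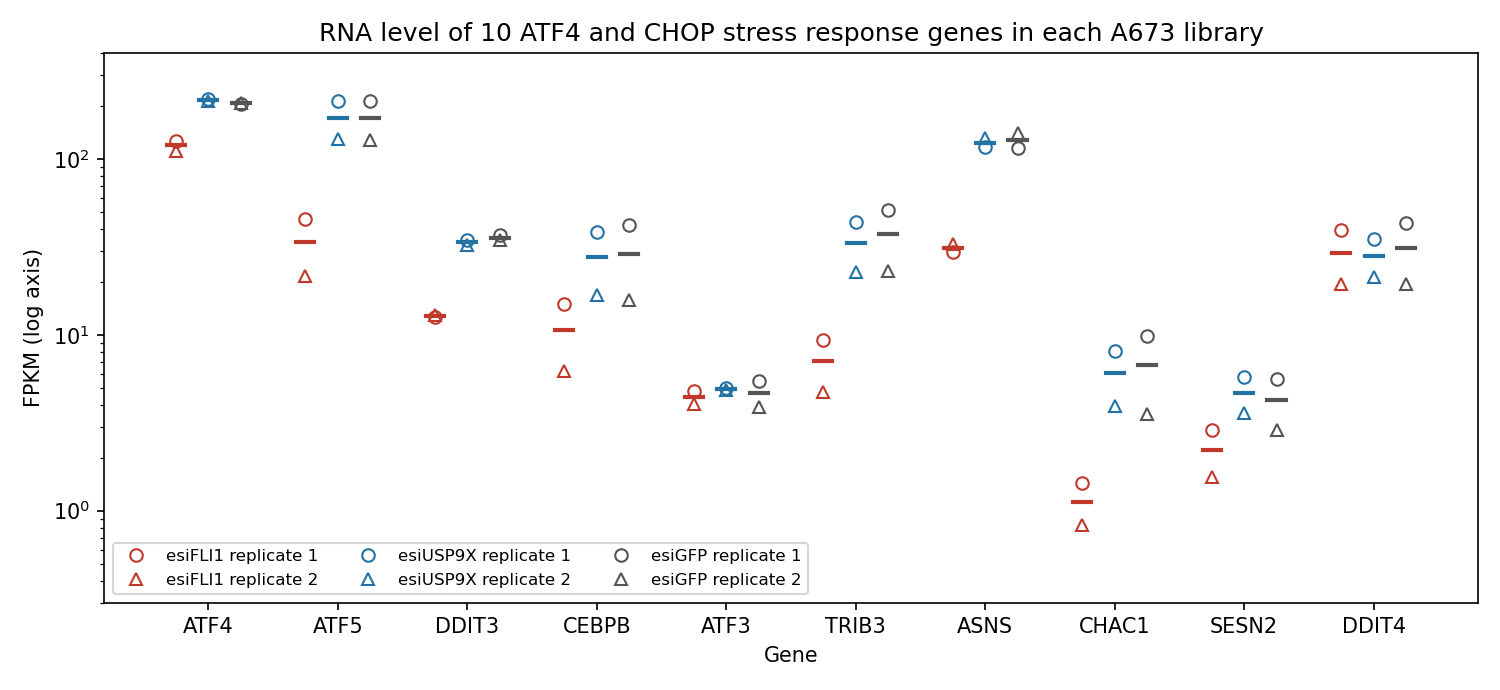
RNA level of each gene (FPKM, log axis) in every library, with esiFLI1 in red, esiUSP9X in blue and esiGFP in grey, replicate 1 as circles, replicate 2 as triangles and group means as bars. The esiFLI1 libraries sit below both esiGFP libraries for 8 genes and overlap with them for ATF3 and DDIT4, and replicate 1 is above replicate 2 for CEBPB, TRIB3, CHAC1, SESN2, DDIT4 and ATF5 in every group.

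ATF4, the transcription factor that gives the pathway its name, had the highest mean level of the 10 in every group. It was 127 and 112 FPKM in esiFLI1, 219 and 214 FPKM in esiUSP9X, and 205 and 208 FPKM in esiGFP. Replicates lay close together, and the esiFLI1 libraries were well below the others. In esiFLI1 its log2 change was -0.79 (SE 0.16, adjusted p = 0.0844 without a block), and it fell in the blocked fit (SE 0.10, adjusted p = 7.7e-04). By level ATF4 stood above 94.8% of kept genes in esiFLI1 and above 96.9% in esiGFP.

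ATF5, a close relative of ATF4 that is translated under similar control and acts in the mitochondrial stress response, was 45.5 and 21.5 FPKM in esiFLI1, 213 and 129 FPKM in esiUSP9X, and 213 and 128 FPKM in esiGFP. Its log2 change in esiFLI1 was -2.36 (SE 0.48, adjusted p = 0.0851 without a block), the largest among the 10, and it was called in the blocked fit (SE 0.11, adjusted p = 1.1e-05). By size of the fall it ranked 26 among all kept genes, ahead of TRIB3 at 31, ASNS at 36 and CHAC1 at 47. Replicate 1 was higher than replicate 2 in each group, by 2.12 times in esiFLI1, 1.65 times in esiUSP9X and 1.67 times in esiGFP, and the change in esiFLI1 was -2.21 in replicate 1 and -2.52 in replicate 2. In the GENCODE annotation ATF5 overlaps IL4I1 and NUP62 on the other strand. Whether the authors' quantification used the strand is not stated, so its level is less certain than those of ATF4 or TRIB3.

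DDIT3, which encodes CHOP, was 12.6 and 12.9 FPKM in esiFLI1, 34.8 and 32.5 FPKM in esiUSP9X, and 36.8 and 34.5 FPKM in esiGFP. The spread between replicates was small in each group and the esiFLI1 libraries stood apart. In esiFLI1 DDIT3 fell by 1.41 in log2 units (SE 0.17, adjusted p = 0.0243, blocked 5.1e-05). Its call without a block was lost whenever a library was left out, and its adjusted p was at most 0.197 over all alternatives. DDIT3 overlaps MARS, a tRNA synthetase gene, and MBD6 on the other strand, so reads of these genes may be shared. MARS changed by -1.11 in esiFLI1 (adjusted p = 0.163, blocked 4.5e-04).

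CEBPB, a bZIP factor that forms dimers with ATF4 and CHOP, was 15.04 and 6.24 FPKM in esiFLI1, 38.6 and 16.9 FPKM in esiUSP9X, and 42.1 and 15.8 FPKM in esiGFP. The higher esiFLI1 library nearly reached the lower esiGFP library, and the replicates differed by 2.29 to 2.66 times within each group. Within replicate pairs the log2 change in esiFLI1 was -1.43 and -1.22. The mean log2 change was -1.32 (SE 0.68, adjusted p = 0.453 without a block), and CEBPB fell in the blocked fit (SE 0.10, adjusted p = 9.0e-05). An antisense gene, CEBPB-AS1, overlaps it.

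ATF3, a stress-induced bZIP factor that often rises with ATF4 activity, was not called in any comparison. It was 4.796 and 4.02 FPKM in esiFLI1, 4.9997 and 4.86 FPKM in esiUSP9X, and 5.465 and 3.87 FPKM in esiGFP. The esiFLI1 values lay between the esiGFP values, and the log2 change was -0.06 in both fits (adjusted p = 0.946, blocked 0.735) with a blocked 95% interval of -0.34 to 0.23.

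TRIB3, a pseudokinase that ATF4 and CHOP induce and that restrains ATF4 in return, was 9.38 and 4.73 FPKM in esiFLI1, 43.8 and 22.7 FPKM in esiUSP9X, and 51.5 and 23.1 FPKM in esiGFP. The higher esiFLI1 library was still below the lower library of either other group. Its log2 change in esiFLI1 was -2.21 (SE 0.55, adjusted p = 0.133 without a block), with -2.34 and -2.07 in the replicate pairs, and the blocked fit called it (SE 0.11, adjusted p = 1.1e-05).

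ASNS, asparagine synthetase and a classic ATF4 target, was 29.7 and 33.0 FPKM in esiFLI1, 117 and 131 FPKM in esiUSP9X, and 115 and 140 FPKM in esiGFP. The esiFLI1 libraries stood far below the others, and ASNS was the one gene of the 10 with a higher level in replicate 2 in every group. In the GENCODE annotation ASNS overlaps a processed transcript on the same strand and a processed pseudogene on the other, so reads may be shared. In esiFLI1 the log2 change of ASNS was -1.99 (SE 0.19, limma adjusted p = 0.0139, blocked 1.1e-05). Its call without a block was lost in the 6 fits that left out a library, and its adjusted p was at most 0.130 over all alternatives.

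CHAC1, which breaks down glutathione and is induced through ATF4, was 1.43 and 0.823 FPKM in esiFLI1, 8.12 and 3.94 FPKM in esiUSP9X, and 9.88 and 3.56 FPKM in esiGFP. It had the largest ratio of means, 5.97 times lower in esiFLI1, and the lowest level of the 10 genes there, above only 3.27% of kept genes. The log2 change of FPKM + 1 was -1.74 (SE 0.52, adjusted p = 0.186 without a block), and CHAC1 fell in the blocked fit (SE 0.18, adjusted p = 3.7e-04). The replicate pairs differed more than for the other genes, with changes of -2.16 and -1.32.

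ASNS and CHAC1 hold the composite C/EBP and ATF element and were called lower in esiFLI1 with the block. DDIT4 has no match and was not called. The windows before the starts of these 3 genes, picked with their results known, are shown. They are 250 bases upstream of a RefSeq transcript start on GRCh38.p14 (ASNS at chr7:97872409-97872658, minus strand; CHAC1 at chr15:40953221-40953470, plus strand; DDIT4 at chr10:72273674-72273923, plus strand), written 5′ to 3′ on the gene's strand. Capitals mark TGATGNAAN, searched on both strands.
ASNS: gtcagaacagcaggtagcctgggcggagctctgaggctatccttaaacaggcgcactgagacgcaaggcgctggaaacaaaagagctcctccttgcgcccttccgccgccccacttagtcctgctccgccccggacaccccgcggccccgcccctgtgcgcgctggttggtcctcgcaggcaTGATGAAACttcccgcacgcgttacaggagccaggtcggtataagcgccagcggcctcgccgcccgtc
CHAC1: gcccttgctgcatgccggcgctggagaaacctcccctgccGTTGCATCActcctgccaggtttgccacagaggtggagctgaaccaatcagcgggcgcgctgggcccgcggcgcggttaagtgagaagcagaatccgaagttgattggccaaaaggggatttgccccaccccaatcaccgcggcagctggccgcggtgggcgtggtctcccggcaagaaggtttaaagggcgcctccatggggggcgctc
DDIT4: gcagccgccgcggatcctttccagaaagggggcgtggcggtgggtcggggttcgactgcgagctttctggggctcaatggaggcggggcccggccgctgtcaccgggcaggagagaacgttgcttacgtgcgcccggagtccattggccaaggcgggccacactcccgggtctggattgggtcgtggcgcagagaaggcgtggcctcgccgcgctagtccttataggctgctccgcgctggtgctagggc
In ASNS the match is TGATGAAAC, which begins 68 bases before the start, where the nutrient-sensing element of this promoter is known to lie. In CHAC1 it begins 210 bases before the start and lies on the other strand, where it reads TGATGCAAC. Another RefSeq window of ASNS has no match. Of the 19 windows that RefSeq gives for the 10 genes, 3 hold TGATGNAAN, against 3.13% of 35116 windows of all genes. The third is a window of ATF3 with TGATGGAAG 191 bases before the start, and ATF3 was not called. The windows of ATF4, ATF5, DDIT3, TRIB3, SESN2 and CEBPB have no match, and all of these were called lower in the blocked fit. A missing match says only that these letters are not in these windows. Whether a match goes with the change was not tested. The related letters TGACGTCA, found in 1.65% of all windows, and TGACGCAA, found in 0.478%, were in 0 of the 19.

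SESN2, a sestrin that senses leucine and restrains the growth kinase complex mTORC1, was 2.86 and 1.55 FPKM in esiFLI1, 5.77 and 3.60 FPKM in esiUSP9X, and 5.61 and 2.88 FPKM in esiGFP. The higher esiFLI1 library was only just below the lower esiGFP library. Its log2 change was -0.69 (SE 0.38, adjusted p = 0.499 without a block), with -0.77 and -0.60 in the replicate pairs, and SESN2 fell in the blocked fit (SE 0.11, adjusted p = 0.0026).

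DDIT4, another inhibitor of mTORC1 that also responds to low oxygen and to glucocorticoids, was 39.2 and 19.3 FPKM in esiFLI1, 35.0 and 21.4 FPKM in esiUSP9X, and 43.0 and 19.4 FPKM in esiGFP. The groups overlapped throughout. The log2 change in esiFLI1 was -0.07 (adjusted p = 0.975, blocked 0.679), with -0.13 and -0.01 in the replicate pairs and a blocked 95% interval of -0.35 to 0.21. Its antisense gene DDIT4-AS1 overlaps it.

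**Figure D2:**
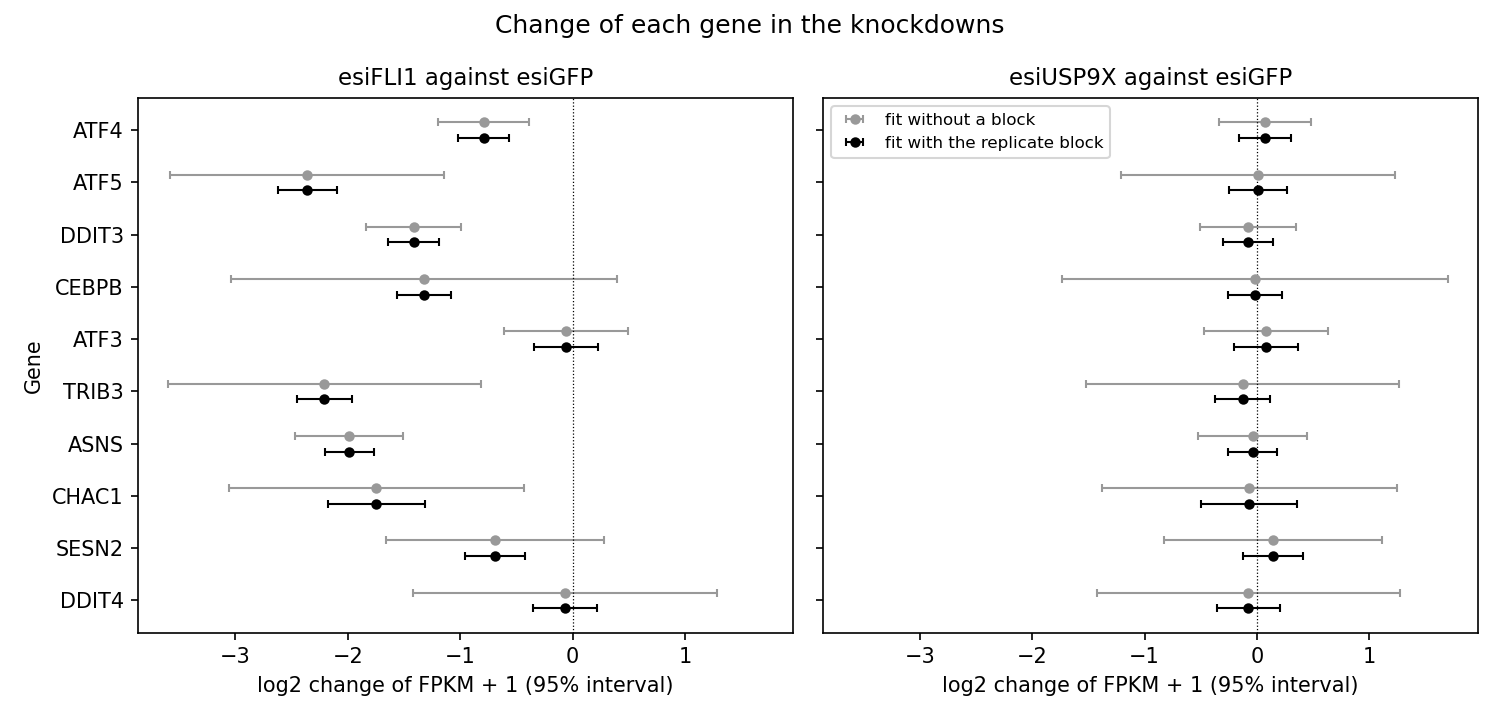
Log2 change of FPKM + 1 of each gene with its 95% interval, for esiFLI1 against esiGFP on the left and esiUSP9X against esiGFP on the right, from the fit without a block in grey and with the replicate block in black. In esiFLI1 the blocked intervals of 8 genes lie below 0 while ATF3 and DDIT4 span it, and in esiUSP9X all 10 intervals span 0 in both fits.

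By level, the 10 genes kept a similar order in the 3 groups. In esiFLI1 ATF4 (119 ± 10.8 FPKM, SD, n = 2) was well above ATF5 (33.5 ± 17.0), ASNS (31.3 ± 2.31) and DDIT4 (29.3 ± 14.1), whose libraries overlapped, and CHAC1 came last (1.13 ± 0.428). In esiGFP the order ran from ATF4 (207 ± 2.67 FPKM, SD, n = 2) through ATF5 (171 ± 60.8) and ASNS (128 ± 18.0) to TRIB3 (37.3 ± 20.1), DDIT3 (35.6 ± 1.64), DDIT4 (31.2 ± 16.7) and CEBPB (28.96 ± 18.5), and then to CHAC1 (6.72 ± 4.47), ATF3 (4.67 ± 1.13) and SESN2 (4.24 ± 1.93). In esiGFP the libraries of ATF5 overlapped with those of ATF4 and of ASNS. Those of TRIB3, DDIT3, DDIT4 and CEBPB overlapped as well, and so did those of CHAC1, ATF3 and SESN2. TRIB3 ranked 7 in esiFLI1, with 7.05 ± 3.29 FPKM, and 4 in esiGFP, while DDIT4 ranked 4 in esiFLI1 and 6 in esiGFP.

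In esiUSP9X none of the 10 genes was called by limma without a block or with it (0 of 10 each, with 0 at an unadjusted p under 0.05 in either fit), against 0.0247% of kept genes called without a block and 0.238% with it (0.074% higher). Without a block 0 kept genes were called lower in this comparison, so USP9X, the target of the knockdown, was not called there either. Log2 changes of the 10 genes ran from -0.13 for TRIB3 to 0.14 for SESN2, and the median was -0.03. The blocked 95% intervals of the 10 changes lay between -0.50 and 0.40, so the falls of ATF5, TRIB3, CHAC1, ASNS, DDIT3, CEBPB, ATF4 and SESN2 by the size seen in esiFLI1 are outside them. Without a block the intervals reached from -1.73 to 1.70, which bounds only ATF4, ATF5, DDIT3, TRIB3, CHAC1 and ASNS away from those sizes. Only for ATF4 did both esiUSP9X libraries stand apart from both esiGFP libraries, with a log2 change of 0.07 (adjusted p = 1, blocked 0.857), and 8.75% of kept genes showed such a shift upward. In 4 of the 10 genes both replicate pairs differed in the same direction, upward for ATF4 and SESN2 and downward for DDIT3 and TRIB3. The share of all kept genes with such agreement was not computed, so this count is a description only.

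The direct comparison of esiUSP9X with esiFLI1 tests whether the knockdowns differ, and it shares the esiFLI1 libraries with the first comparison and the esiUSP9X libraries with the second. DDIT3 and ASNS were higher in esiUSP9X, by 1.33 (SE 0.17, adjusted p = 0.0255) and 1.95 (SE 0.19, adjusted p = 0.0147), so 2 of the 10 genes were called by limma, against 0.419% of kept genes called higher and 3.08% in either direction. The blocked fit called 8 higher, against 20.2% of kept genes called higher and 41.1% in either direction, with changes of 2.37 for ATF5, 2.08 for TRIB3, 1.67 for CHAC1, 1.30 for CEBPB, 0.86 for ATF4 and 0.83 for SESN2, and adjusted p of at most 0.0011. ATF3 changed by 0.14 (blocked adjusted p = 0.407) and DDIT4 by -0.01 (blocked adjusted p = 0.953).

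Levels of several of these genes also differed between the replicate numbers. CEBPB was higher in replicate 1 than in replicate 2 by 1.22 on the log2 scale, averaged over the 3 groups, TRIB3 by 0.97, DDIT4 by 0.93, CHAC1 by 0.85, ATF5 by 0.83 and SESN2 by 0.64. ATF3 differed by 0.22, ATF4 by 0.06, DDIT3 by 0.05 and ASNS by -0.20. The 6 genes with a difference over 0.6 have transcripts of 58.1% to 66.2% GC, and the other 4 of 47.0% to 56.7% GC. Over 11011 kept genes with a GENCODE transcript (90.5%), the median difference ran from -0.45 in the fifth with the lowest GC content to 0.75 in the fifth with the highest (Spearman's rho 0.881, a description across genes of the same 6 libraries). What made the replicates differ was not tested, and the replicate block takes up a difference that is the same in all groups.

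**Figure D3:**
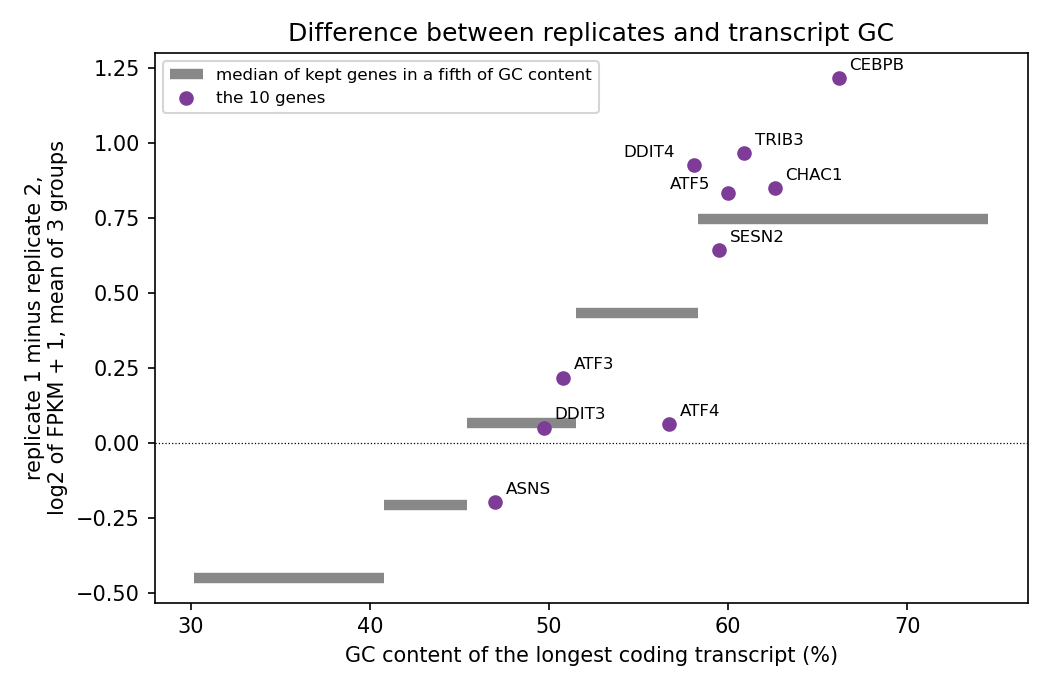
Mean difference between replicate 1 and replicate 2 over the 3 groups (log2 of FPKM + 1) against the GC content of the longest coding transcript, for the 10 genes as points and as the median of all kept genes in 5 equal bins as grey bars. Genes above 58% GC, from DDIT4 to CEBPB, were higher in replicate 1 by 0.64 to 1.22, and ASNS at 47.0% was the one below 0.

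Genes that act downstream of ATF4 in amino acid supply were mostly lower in esiFLI1 as well. The lists that follow were chosen with earlier results of these data known, and their counts stand beside 0.23% of all kept genes called lower and 2.58% called higher without a block, and 21.6% called lower and 20.6% called higher with it. Of 20 genes of amino acid and one-carbon metabolism and amino acid transport, 1 fell and 0 rose without a block, and with it 17 fell and 1 rose (median log2 change -0.88, against -0.03 over all kept genes). PSAT1, an enzyme of serine synthesis, was 72.6 and 75.0 FPKM in esiFLI1, against 209 and 223 FPKM in esiGFP (log2 change -1.54, adjusted p = 0.0149). CTH, which makes cysteine, was 5.23 and 5.31 FPKM in esiFLI1, against 11.96 and 12.0005 FPKM in esiGFP (-1.05, adjusted p = 0.0515, blocked 2.3e-04). MTHFD2, a mitochondrial folate enzyme, was 72.7 and 90.3 FPKM in esiFLI1, against 166 and 188 FPKM in esiGFP (-1.11, adjusted p = 0.0549, blocked 1.9e-04). The gene that rose was SLC38A2, a neutral amino acid transporter (0.57, blocked adjusted p = 0.0029).

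Aminoacyl-tRNA synthetases and the tRNA exporter XPOT, which ATF4 also induces, had 0 calls without a block and 11 falls among 12 genes in the blocked fit, which called 21.6% of all kept genes lower (median -0.69). GARS, the glycine enzyme, was 91.1 and 73.5 FPKM in esiFLI1, against 167 and 170 FPKM in esiGFP (blocked adjusted p = 3.6e-04). SARS, the serine enzyme, changed by -0.93 (blocked adjusted p = 4.6e-04) and XPOT by -0.78 (blocked adjusted p = 7.6e-04). Of 10 genes of the mitochondrial unfolded protein response, limma called 0 without a block and 8 lower with it, against the same 21.6% (median -0.61). Among them LONP1, a matrix protease, changed by -1.12 (blocked adjusted p = 2.0e-04), and the chaperones HSPA9 by -0.76 (8.9e-04) and HSPD1 by -0.70 (0.0020).

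Other target genes of ATF4 and CHOP went both ways. Of 24 kept genes of 26 listed, 2 rose and 0 fell without a block, and with it 9 fell and 4 rose, where 42.1% of all kept genes were called in either direction (median -0.14). The risers were KLHL24, a ubiquitin ligase adaptor (1.95, adjusted p = 0.0355), and NUPR1, a stress-induced chromatin protein (1.58, adjusted p = 0.0337). NUPR1 was 6.43 and 4.93 FPKM in esiFLI1, against 0.984 and 1.497 FPKM in esiGFP, and KLHL24 was 6.18 and 10.6 FPKM in esiFLI1, against 1.29 and 1.44 FPKM in esiGFP. In esiUSP9X NUPR1 was 0.798 and 0.516 FPKM, so it would not have passed the filter without the esiFLI1 libraries. BCL2L11, a cell death activator, was called higher with the block (0.99, adjusted p = 6.6e-04, against 0.0573 without). PPP1R15A, the stress-induced subunit of the eIF2 phosphatase and a target of both factors, overlapped between groups with 11.2 and 6.71 FPKM in esiFLI1 and 10.8 and 6.82 FPKM in esiGFP.

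Genes of the other arms of the unfolded protein response, ATF6 and IRE1, were called about as often as kept genes in general. Of 21 such genes, limma called 0 without a block, and with it 6 genes rose and 2 fell, against 42.1% of all kept genes called in either direction (median 0.06). PDIA3 (0.38, blocked adjusted p = 0.0133) and PDIA6 (0.33, 0.0271), disulfide isomerases of the endoplasmic reticulum, rose, and the cochaperone DNAJB11 fell by 0.43 (0.0121). HSPA5, the main chaperone of that compartment, was 270 and 301 FPKM in esiFLI1, against 294 and 317 FPKM in esiGFP, with overlapping groups. Upstream of ATF4, among 17 genes for eIF2, its kinases, phosphatase and exchange factor, limma called 0 without a block and 1 higher and 6 lower with it, a share near the 42.1% of all kept genes (median -0.08). EIF2AK3, which encodes the kinase PERK, was 6.72 and 7.82 FPKM in esiFLI1, against 3.005 and 3.99 FPKM in esiGFP (0.88, blocked adjusted p = 6.7e-04). EIF2B3, a subunit of the exchange factor, fell by 0.77 (blocked 0.0017), and PPP1CC, a phosphatase catalytic subunit, by 0.55 (blocked 0.0039).

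**Figure D4:**
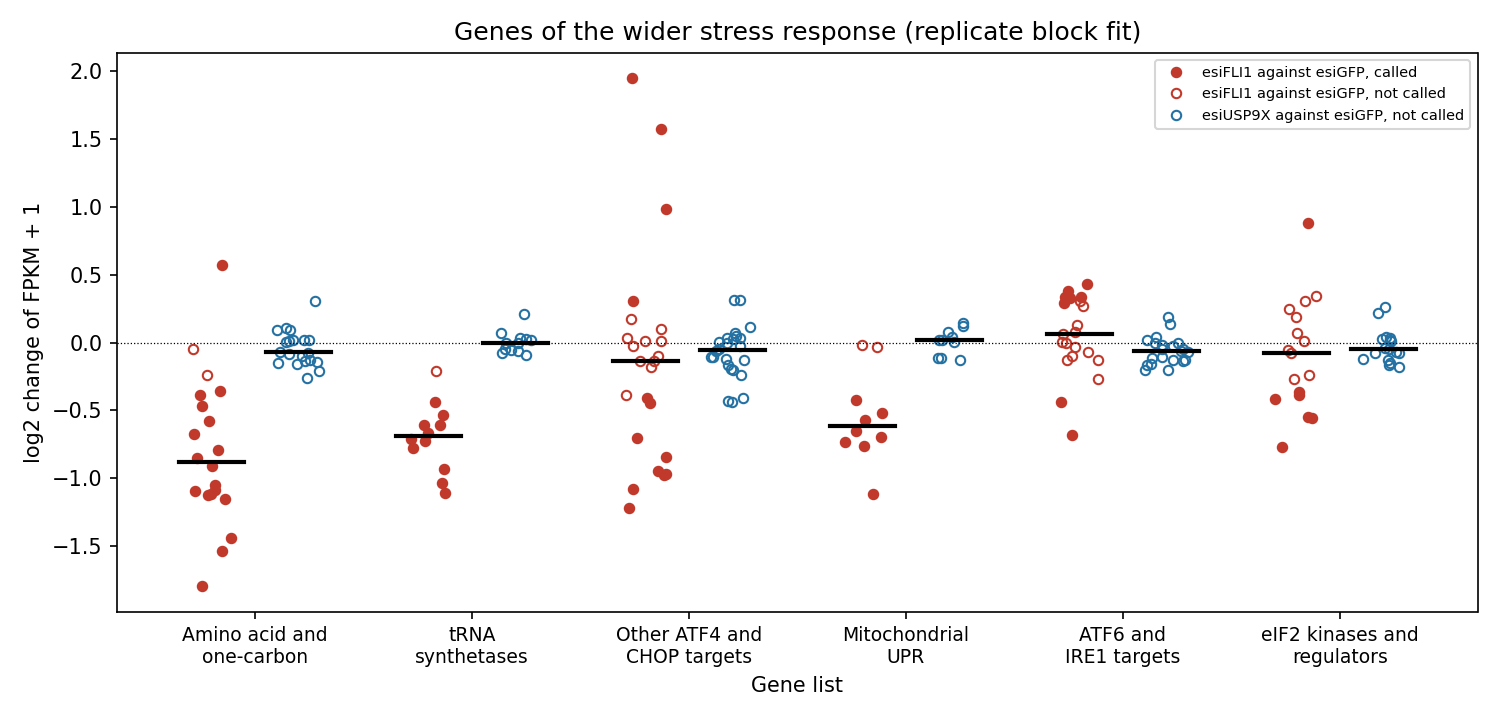
Log2 change of FPKM + 1 of each gene in 6 lists, the 10 genes of the main set left out, for esiFLI1 against esiGFP in red and esiUSP9X against esiGFP in blue, with filled points for genes called in the blocked fit and bars for medians. In esiFLI1 the medians of the amino acid, tRNA synthetase and mitochondrial lists lie at -0.88, -0.69 and -0.61 and those of the other 3 between -0.14 and 0.06, and in esiUSP9X 0 genes of these lists were called.

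In esiUSP9X, 0 genes of these 6 lists were called in either fit, and their medians lay between -0.07 and 0.02. Among 14 other kept genes of the ATF and CREB family, limma called 0 without a block, and with it 5 genes rose and 0 fell in esiFLI1, against 20.6% of all kept genes called higher and 42.1% called in either direction (median 0.23). CREB3L1 was 23.3 and 12.2 FPKM in esiFLI1, against 9.01 and 4.38 FPKM in esiGFP (1.29, blocked adjusted p = 1.9e-04), and CREB3L2 (1.04, 3.2e-04) and CREB3L4 (0.88, 0.0013) also rose, all 3 being factors anchored in the membrane of the endoplasmic reticulum. Of the 2 other kept C/EBP genes, CEBPG, the partner of ATF4 on amino acid genes, fell by 0.96 (blocked adjusted p = 3.4e-04), and CEBPD rose by 0.76 (blocked 0.0038), with 0 called without a block.

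Of 6 kept paralogs of the main set, 1 rose and 0 fell in esiFLI1 without a block, and 2 rose and 2 fell with it, against 42.1% of all kept genes called in either direction. SESN3 rose by 1.503 in esiFLI1 (adjusted p = 0.0478), with 3.90 and 6.46 FPKM, against 1.17 and 1.10 FPKM in esiGFP, while SESN2 fell in the blocked fit. TRIB1 was 5.18 and 4.997 FPKM in esiFLI1, against 10.9 and 14.7 FPKM in esiGFP (-1.17, adjusted p = 0.0639, blocked 4.7e-04). DDIT4L, with 1.12 and 1.48 FPKM in esiFLI1 and 0.712 and 0.593 FPKM in esiGFP, rose in the blocked fit (0.48, adjusted p = 0.0257). With 0.988 and 0.925 FPKM in esiUSP9X, DDIT4L passed the filter only through esiFLI1, so its call is not independent of the filter. CHAC2 was 13.4 and 24.0 FPKM in esiFLI1, against 21.7 and 32.1 FPKM in esiGFP, and fell in the blocked fit (-0.53, adjusted p = 0.0070). TRIB1 thus lay on the same side of control as TRIB3, and SESN3 on the other side from SESN2. The CHAC2 libraries of esiFLI1 and esiGFP overlapped, and only the blocked fit called CHAC2 lower, the direction of CHAC1.

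In the ATF4 target lists, windows were found by symbol for 14 of 20 amino acid genes, 1 of 12 tRNA synthetase genes and 19 of 26 other targets. The rest were not searched. Of the 6 genes with a match, FGF21 was too low to be kept and tested. In the blocked fit 3 were called lower, against 21.6% of all kept genes. Short windows around the element are shown for these 3, CEBPG, GOT1 and SLC1A5, which were picked after their values were seen. They lie on GRCh38.p14 (CEBPG at chr19:33374055-33374095, plus strand; GOT1 at chr10:99430799-99430839, minus strand; SLC1A5 at chr19:46784887-46784927, minus strand), with TGATGNAAN on either strand in capitals.
CEBPG: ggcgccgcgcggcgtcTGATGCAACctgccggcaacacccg
GOT1: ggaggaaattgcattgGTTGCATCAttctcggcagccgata
SLC1A5: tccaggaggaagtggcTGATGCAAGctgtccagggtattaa
CEBPG, GOT1, an aspartate aminotransferase, and SLC1A5, a glutamine transporter, changed by -0.96, -0.67 and -1.08 in esiFLI1, with blocked adjusted p of 3.4e-04, 0.0031 and 4.5e-04. JDP2 and HERPUD1 hold the same letters TGATGCAAC and were not called (0.03, blocked adjusted p = 0.863, and -0.13, blocked 0.278), so the match did not go with the change in each case. Falls were also seen without a match. In the blocked fit 17 of the 20 amino acid genes fell, against 21.6% of all kept genes called lower. Only GOT1 and SLC1A5 of the 14 with a window hold a match. CTH fell and its window has no match. Whether a match goes with the change was not tested. Of the other list genes with a match, PPP1R15B, an eIF2 phosphatase subunit, changed by -0.39 (blocked adjusted p = 0.0168), CREB5 by -0.26 (0.127) and TSC2 by 0.15 (0.287), and FGF21 was too low to be kept.

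Likeness to ATF4 and ASNS was measured as the root mean square difference of log2(FPKM + 1) over the 6 libraries, each gene centred on its own mean. The 5 genes most like ATF4 were ARHGAP19 (0.04), MTHFD1L, a mitochondrial folate enzyme (0.05), STC2, a secreted glycoprotein and known ATF4 target (0.05), RNMTL1 (0.05) and C20orf24 (0.05). MTHFD1L was 31.5 and 27.9 FPKM in esiFLI1, against 49.8 and 54.3 FPKM in esiGFP. The 5 most like ASNS were FEZF1 (0.18) and SOX1 (0.23), developmental transcription factors, CLDN1, a tight junction protein (0.21), PSAT1 (0.26) and NPY1R, a neuropeptide Y receptor (0.27). Among the main set, DDIT3 was the most like ASNS, at 0.31 and rank 13 of all kept genes, and DDIT4 the least, at 1.08 and rank 8704. None of the main set was near ATF4 in this measure, where DDIT3 came closest, at 0.28 and rank 1238, and ATF5 was farthest, at 0.82 and rank 11150. The values were not scaled, so a gene that fell further than ATF4 or differed more between replicates counts as unlike it. In esiFLI1 ATF5 changed by -2.36 and ATF4 by -0.79. A low rank thus does not mean a change in another direction.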

How the data were processed

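RNA was sequenced from 6 libraries of A673 cells, 2 per group. The deposited table gives FPKM, which the authors made per gene symbol and library. Per the submitters' processing notes, TopHat, Cufflinks and Cuffdiff were used with hg19 (GRCh37). Their versions, the annotation and any use of strand are not stated. A last line without a gene was left out (1 line). No counts were used, so depth is unknown and no counting intervals were computed.

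The filter of 1 FPKM in 2 libraries kept 12169 genes. Limma 3.58.1 (R 4.3.3) was run on log2(FPKM + 1) (lmFit, eBayes with trend, two-sided, Benjamini-Hochberg over all kept genes), with all 6 libraries and 3 group means. SD is over 2 libraries and SE is from the model. The labels number replicates 1 and 2 in each group but state no shared day or culture, so p-values reflect the spread between samples that may be technical repeats. Deviations from the group mean were correlated across genes, with 0.647 for esiFLI1 and esiGFP, 0.589 for esiUSP9X and esiGFP and 0.644 for esiFLI1 and esiUSP9X. All were over 0.1, so the pairing was taken from the data, and a fit with the replicate block stands beside each result it changes. Residual degrees of freedom were 3 without and 2 with the block. The procedure was tested on simulated data with a replicate effect that was the same in all groups. Such a test cannot show whether the block fits the real libraries.

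The 10 genes and the 12 gene lists (180 genes) and 5 marker lists were chosen with earlier results of these data known. Named are the 10 genes, FLI1 and USP9X, the 3 genes of each list with the smallest adjusted p in esiFLI1 against esiGFP, any called in another comparison, and the 5 genes most like ATF4 and ASNS. MARS, SLC38A2, PPP1R15A, HSPA5, GOT1, SLC1A5, JDP2, HERPUD1, PPP1R15B, CREB5, TSC2, FGF21 and CHAC2 were named after their values were seen. Promoter windows came from RefSeq (GRCh38.p14, all 10 genes matched) and transcript GC and overlapping genes from GENCODE 29, used for names and sequence only, since the table is on another build. Alternatives were the block, pseudocount, filters, scalings, trend, the 4 libraries compared alone, and leaving out each library.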

Additional observations from a re-analysis of the deposited data

How the results depend on the processing

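For esiFLI1 against esiGFP and for esiUSP9X against esiFLI1, the count of 2 called genes, DDIT3 and ASNS, was the same with a pseudocount of 0.1, without a filter, with a filter of 5 FPKM, with median-ratio or quantile scaling, after rescaling without MIR6723 and without the variance trend. It was 0 when only the 4 libraries compared were fitted. With the replicate block it was 8 in both comparisons, also with a pseudocount of 0.1, with either scaling and with the rescaling, a combination chosen after seeing the data. Leaving out each library makes a group with a lone library, which is assumed to vary like the others, so calls from those fits are not counted. The calls of DDIT3 and ASNS without the block were lost there, and the log2 changes of the 8 genes kept their sign in both comparisons. For esiUSP9X against esiGFP the count was 0 under every setting. Over all kept genes, the block moved the count called in esiFLI1 to 5125, against 342 without it, and the share of calls that were higher to 48.8%, against 91.8%, and with the rescaling that blocked share was 68.8%. Rescaling without MIR6723 put the median log2 change of all genes at 0.11, against -0.03.

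Changes of sign were seen for values that no fit called. With and without the block, DDIT4 in esiFLI1 against esiGFP was 0.0092 under quantile scaling and 0.083 after rescaling, and ATF3 was 0.078 after rescaling. In esiUSP9X against esiGFP, CEBPB was 0.0032 and 0.032 and ASNS was 0.019 and 0.011 under these settings, and in esiUSP9X against esiFLI1 DDIT4 was 0.0059 under median-ratio scaling. Leaving out libraries gave -0.26 to 0.15 for ATF3 and -0.62 to 0.49 for DDIT4 in esiFLI1 against esiGFP. It gave -0.36 to 0.38 for ATF5, -0.12 to 0.28 for ATF3, -0.69 to 0.43 for TRIB3, -0.70 to 0.56 for CHAC1, -0.24 to 0.53 for SESN2, -0.63 to 0.48 for DDIT4, -0.70 to 0.66 for CEBPB and -0.18 to 0.10 for ASNS in esiUSP9X against esiGFP, and -7.1e-04 to 0.27 for ATF3 and -0.50 to 0.48 for DDIT4 in esiUSP9X against esiFLI1. The cause was not tested. With 2 libraries a group and no counts, small changes of low genes such as ATF3, SESN2 and CHAC1 are bounded only by the intervals given.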

Other observations

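A few further lists hold genes around DDIT4, SESN2 and ATF3. Of 17 kept targets of HIF1, p53 or the glucocorticoid receptor, 2 rose in esiFLI1 and 0 fell without a block, and with it 5 rose and 8 fell, against 20.6% of all kept genes called higher and 21.6% called lower with it (median log2 change -0.18, limma). ADM, a vasodilator peptide induced by low oxygen, was 40.6 and 30.8 FPKM in esiFLI1, 4.14 and 3.17 FPKM in esiUSP9X, and 6.25 and 1.89 FPKM in esiGFP (2.99, adjusted p = 0.0468). KLF9, a glucocorticoid-induced factor, was 2.22 and 2.40 FPKM in esiFLI1, against 0.699 and 0.601 FPKM in esiGFP (1.01, adjusted p = 0.0326). With 0.714 and 0.756 FPKM in esiUSP9X, KLF9 passed the filter only through esiFLI1, so its call is not independent of the filter. VEGFA, another gene induced by low oxygen, was 14.2 and 11.7 FPKM in esiFLI1, against 30.5 and 26.4 FPKM in esiGFP (-1.08, adjusted p = 0.0756, blocked 1.5e-04). ADM and VEGFA thus lay on opposite sides of control.

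Of 15 kept regulators of mTORC1, limma called 0 without a block, and with it 1 rose and 4 fell, against 42.1% of all kept genes called in either direction (median -0.20). SEH1L, a subunit of the GATOR2 complex, changed by -0.63 (blocked adjusted p = 0.0016), TSC1, an inhibitor of the pathway, by 0.33 (blocked 0.0338) and MTOR, the kinase itself, by -0.25 (blocked 0.0806, not called). Of 11 kept AP-1 genes, limma called 0 without a block, and with it 2 rose and 4 fell, against the same 42.1% (median -0.32). JUN, a common partner of ATF3, was 17.2 and 14.4 FPKM in esiFLI1, against 9.69 and 8.04 FPKM in esiGFP (0.77, blocked adjusted p = 8.3e-04). FOSL2 changed by 1.42 (blocked 2.7e-04) and MAFF by -0.49 (blocked 0.0183). In esiUSP9X against esiGFP 0 genes of these lists were called in either fit.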
